A study of Mus musculus with 6 samples.

Results

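The respiratory chain of mitochondria is built from subunits encoded in 2 genomes, and the nuclear share of it was followed here through the leukocytes of the inflamed mouse spinal cord. The genes were chosen by symbol alone: every gene of the single-cell count table that starts with Nduf, Cox4 to Cox8, Atp5 or Uqcr, or is Sdha, Sdhb, Sdhc or Sdhd. This gave 91 of 19449 genes, of which 39 are subunits of complex I, 8 are complex I assembly factors (Ndufaf), 4 belong to complex II, 8 to complex III, 15 to complex IV (cytochrome c oxidase) and 17 to complex V (ATP synthase). Experimental autoimmune encephalomyelitis (EAE), a model of multiple sclerosis, had been induced by adoptive transfer: CD4+ T cells from immunised donors, cultured with MOG35-55 (a peptide of myelin oligodendrocyte glycoprotein) under Th17-polarising conditions, were injected into syngeneic C57BL/6 recipients, with both sexes used in the study. Recipients were young (8 to 12 weeks) or middle-aged (40 to 44 weeks), and CD45+ spinal cord cells were sorted on day 6 or day 10 after transfer. Each of these 4 groups is 1 single-cell library pooled from 4 spinal cords, so differences between pools and between conditions cannot be told apart with a single pair of libraries. A further 2 bulk RNA libraries hold microglia from untreated (naive) mice, 1 young and 1 middle-aged.

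Complex I passes electrons from NADH, and complex II (succinate dehydrogenase, also an enzyme of the citric acid cycle) passes electrons from succinate, to ubiquinone. Complex III hands them on to cytochrome c and complex IV to oxygen, and complex V uses the proton gradient built on the way to make ATP. The core subunits of complexes I, III, IV and V that sit deepest in the inner membrane are encoded by mitochondrial DNA and the rest by nuclear genes, among them tissue-specific isoforms of several cytochrome c oxidase subunits. Neutrophils are known for relying mainly on glycolysis, and activated macrophages and microglia for shifting between glycolysis and respiration.

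Nuclear respiratory chain genes are scattered over the genome, and what many of them share is a compact promoter with short motifs for ubiquitous factors. RefSeq promoter windows (GRCm38.p6, 250 bases before to 50 after the start) were found for 74 of the 91 genes, and each motif was searched on both strands. The NRF1 core GCGCATGC was in 12 of the 74 windows (16.2%) against 2.80% of all 27025 windows, the ETS core CCGGAAG in 18 (24.3%) against 9.12%, and the YY1 core AAGATGGC in 10 (13.5%) against 2.88%. The estrogen-related receptor element AAGGTCA was in 8 (10.8%) against 4.66%, and the GC box GGGCGG in 34 (45.9%) against 35.9%. YY1 cores were in 7 of 33 complex I windows and in none of the 11 complex IV windows, and GC boxes in 6 of 7 windows of assembly factors. These are letter matches and say nothing of binding. To show what such promoters look like, 150 bases before the outermost annotated start are printed 5′ to 3′ for the gene of each complex with the most unique molecular identifiers (UMIs, 1 per captured transcript) among those whose 150 bases hold no annotated exon, and for Ndufa4, a subunit that returns below. Capitals mark motif letters. The windows are chr8:83566521-83566670 (plus strand), chr4:140961053-140961202 (plus), chr4:116075072-116075221 (minus), chr19:7217617-7217766 (minus), chr2:174464106-174464255 (minus) and chr6:11907498-11907647 (minus).
Ndufb7: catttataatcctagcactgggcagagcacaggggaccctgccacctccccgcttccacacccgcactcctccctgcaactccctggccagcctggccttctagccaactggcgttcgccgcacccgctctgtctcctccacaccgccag
Sdhb: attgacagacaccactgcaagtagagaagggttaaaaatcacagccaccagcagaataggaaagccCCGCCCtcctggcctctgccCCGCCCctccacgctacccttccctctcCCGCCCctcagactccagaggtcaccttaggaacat
Uqcrh: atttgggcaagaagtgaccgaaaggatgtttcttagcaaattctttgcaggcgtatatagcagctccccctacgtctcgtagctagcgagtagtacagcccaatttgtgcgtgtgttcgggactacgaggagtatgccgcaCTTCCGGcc
Cox8a: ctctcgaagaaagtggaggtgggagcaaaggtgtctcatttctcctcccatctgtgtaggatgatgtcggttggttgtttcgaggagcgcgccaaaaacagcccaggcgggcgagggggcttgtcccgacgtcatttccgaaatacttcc
Atp5e: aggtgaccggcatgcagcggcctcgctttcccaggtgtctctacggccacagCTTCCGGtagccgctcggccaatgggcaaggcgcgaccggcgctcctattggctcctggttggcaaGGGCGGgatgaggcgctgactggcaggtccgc
Ndufa4: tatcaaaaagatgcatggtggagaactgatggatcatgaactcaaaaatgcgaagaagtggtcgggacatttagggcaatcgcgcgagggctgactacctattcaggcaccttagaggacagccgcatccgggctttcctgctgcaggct
Sdhb held a run of 3 GC boxes, Uqcrh an ETS core 10 bases before its RefSeq start and Atp5e an ETS core and a GC box, whereas the stretches of Ndufb7, Cox8a and Ndufa4 held none of the 5 motifs. In the longer RefSeq windows Cox8a held 2 ETS cores and Ndufb7 held 1, and Ndufa4 held none of the 5 motifs.

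The 4 single-cell libraries held 8315 to 10026 cells and 57337626 to 69859331 UMIs, with a median of 4704.5 to 6196 UMIs per cell. Of 37903 barcodes, 154 were found in more than 1 library. The authors' 16 clusters (numbered 0 to 15) were used, and names were given only from marker lists. Clusters 0, 3 and 6 are neutrophil-like, 1 and 5 monocyte/macrophage-like, 2 T cell-like, 4 B cell-like, 7 dendritic cell-like, 9 NK cell-like and 10 microglia-like. None of the 10 leading genes of cluster 0 was a listed neutrophil marker, and its name rests on the list median, 1.05 higher than in other cells on the log2 scale. The same holds for cluster 5, with none of its 10 leading genes on the monocyte/macrophage list and a list median 0.816 higher. Cluster 8 is kept by number, although microglia was its highest list, 2.21 higher than in other cells on the log2 scale. Its leading genes (Fam167b, Crybb1, Cd81, Cox6a2) held no listed microglia marker, a limit shared with clusters 0 and 5 for their own lists. In the young day 6 library its median cell had 33.2% of the library's median depth, against 38.2% in cluster 0 and 34.9% in cluster 3. Withholding the name is a cautious choice, and cluster 8 may hold microglia too. Clusters 11 to 15 are unnamed, and clusters 12 and 15 held as few as 4 cells in a library. Levels below are UMIs of a gene, or of the 91 genes, summed over the cells of a cluster in a library and divided by all UMIs there, as a percentage or as CPM (counts scaled to the same total in every library and cluster). Groups of 4 values are given in the order young day 6, middle-aged day 6, young day 10 and middle-aged day 10. Clusters had been made from the same counts, so their levels are compared without a test.

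Over whole libraries the 91 genes took 1.76%, 1.74%, 1.95% and 1.95% of UMIs. The share was highest in cluster 8, at 2.70% ± 0.0857 (SD, n = 4 libraries; range 2.58 to 2.78), followed by cluster 11 at 2.40% ± 0.216, whose libraries overlapped those of cluster 8. Monocyte/macrophage-like cluster 1 (2.07% ± 0.189), T cell-like cluster 2 (2.05% ± 0.097), dendritic cell-like cluster 7 (2.02%), monocyte/macrophage-like cluster 5 (1.95%) and NK cell-like cluster 9 (1.92%) lay close together and did not differ beyond their spread on this total. Ribosomal protein genes took 15.6% of UMIs in cluster 1 and 32.9% in cluster 2. With a total free of mitochondrially encoded and ribosomal genes, cluster 2 lay above cluster 1, as given in the last section. Microglia-like cluster 10 had a mean of 1.63% ± 0.181, and B cell-like cluster 4 at 1.51%. The lowest shares were in the 3 neutrophil-like clusters, at 0.966% ± 0.469 in cluster 0, 0.885% in cluster 6 and 0.682% in cluster 3. Cluster 0 was also the one whose libraries spread most, with 0.576%, 0.546%, 1.38% and 1.36%, so that both day 10 libraries lay above both day 6 libraries.

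**Figure D1:**
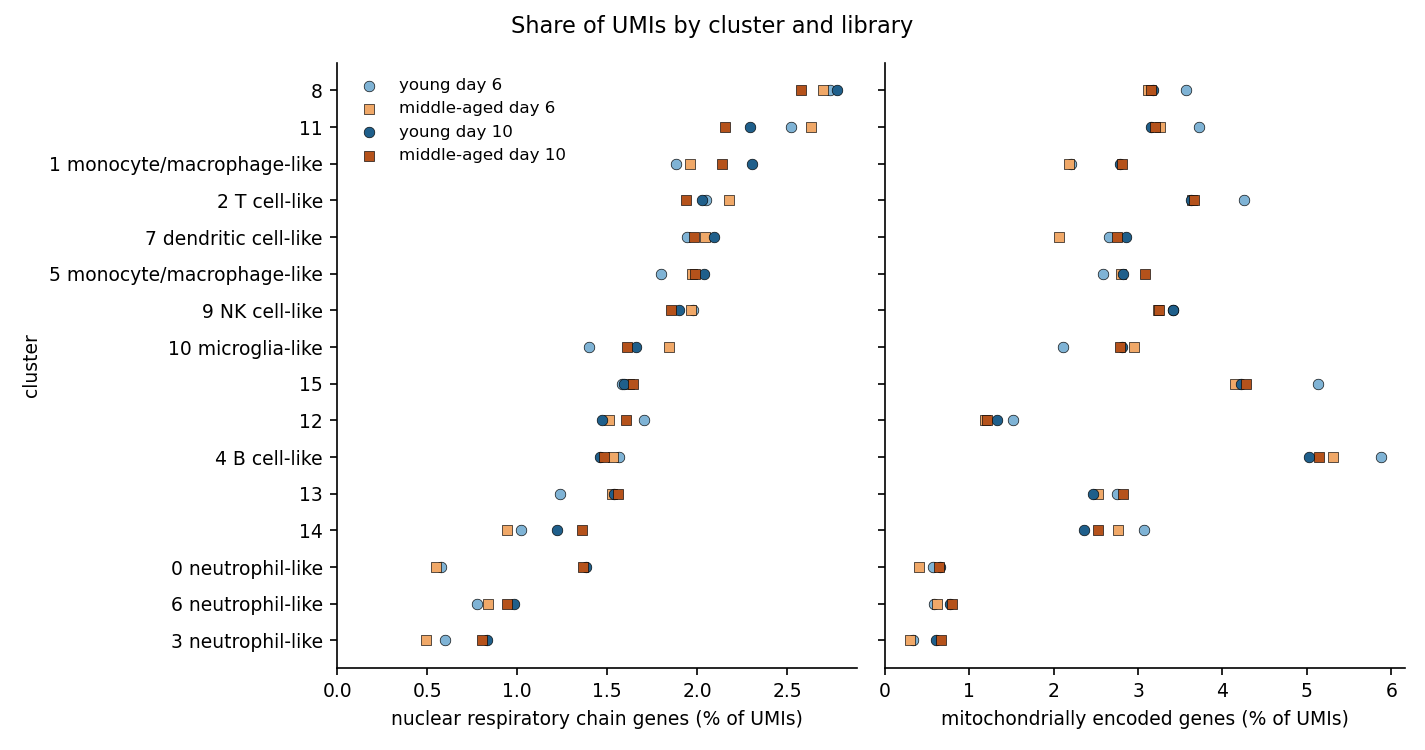
Share of UMIs (percent) of the 91 nuclear respiratory chain genes (left) and of the 13 mitochondrially encoded genes (right) in each cluster, with 1 point per library. Cluster 8 lies highest on the left at 2.58 to 2.78%, the neutrophil-like clusters 0, 3 and 6 lowest, and cluster 4 highest on the right at 5.02 to 5.88%.

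The order of the mitochondrially encoded subunits was another. Their share was highest in B cell-like cluster 4, from 5.02 to 5.88% of UMIs, where only 0.283 UMIs of the 91 nuclear genes were counted per mitochondrially encoded UMI. In cluster 0 this ratio was 1.65, with mitochondrially encoded shares of 0.569%, 0.409%, 0.649% and 0.637%. The studied cells had been kept by the authors only with less than a set share of mitochondrial reads, which bounds these shares from above.

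The clusters kept a similar balance of complexes but not the same one. Complex IV made up 35.3% ± 3.31 of the members' UMIs in cluster 0, its highest fraction among the 16 clusters, with 37.6% and 38.6% on day 6 and 32.3% and 32.6% on day 10. Complex I took 27.7% in cluster 0, 31.0% in cluster 8, 31.1% in cluster 10 and 35.1% in cluster 12. Assembly factors took 1.25% ± 0.3 in cluster 10 and between 0.601% and 1.16% in the other 15 clusters.

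Gene by gene the pattern was broad. Among the 87 genes with 1000 or more UMIs, the median CPM over the 4 libraries was highest in cluster 8 for 53 and in cluster 11 for 18, and lowest in cluster 3 for 63, in cluster 0 for 12 and in cluster 6 for 6. The same counts were not made for all genes, so they are not a trait of these members. With the libraries pooled, the 13 neutrophil markers alone took 260241 CPM in cluster 3 and 387686 CPM in cluster 6, which leaves less of the total for other genes. In complex I the genes with the most UMIs were Ndufb1-ps, Ndufa13 (also known as a cell death regulator) and Ndufb7. Ndufb1-ps, which the annotation lists as a long noncoding RNA at a bidirectional promoter, was highest in cluster 1, at 547, 605, 451 and 415 CPM. Ndufa13 reached 441, 402, 485 and 498 CPM in cluster 8. The assembly factors Ndufaf8 and Ndufaf3 were at medians of 73.4 and 40.3 CPM in cluster 8, below these 3 subunits.

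In complex II, the iron-sulphur subunit Sdhb had 138, 151, 177 and 152 CPM in cluster 8. The membrane anchors Sdhd and Sdhc were highest there too, at medians of 117 and 64.2 CPM, whereas the flavoprotein Sdha was highest in B cell-like cluster 4, at a median of 86.8 CPM. In complex III, the hinge protein gene Uqcrh was highest in T cell-like cluster 2, at 872, 840, 931 and 947 CPM, and Uqcrq and Uqcrb in cluster 8, at medians of 540 and 427 CPM. Cytochrome c oxidase gave the most abundant members. Cox4i1, the ubiquitous isoform of subunit 4, had 1123, 1078, 1462 and 1383 CPM in cluster 8 and a median of 337 CPM in cluster 3, and Cox8a 975, 1156, 1262 and 1212 CPM in cluster 8 against a median of 445 CPM in cluster 6. Cox7c ran from a median of 734 CPM in cluster 8 to 148 CPM in cluster 0. In ATP synthase, Atp5e (the epsilon subunit) had a median of 851 CPM and Atp5l (subunit g) one of 704 CPM in cluster 8, and Atp5h (subunit d of the stalk) was highest in cluster 11, at a median of 711 CPM.

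Among genes with a median of 50 CPM or more in some cluster, the 5 with the widest range over clusters were Cox6a2, Ndufa5, Ndufc2, Atp5g1 and Ndufa9. Ndufa5, an accessory subunit of the complex I matrix arm, had 175, 159, 141 and 151 CPM in cluster 8 and 3.62, 0, 5.10 and 0 CPM in cluster 3. The assembly factors Ndufaf4 and Ndufaf2 ranged as widely, at or under lower medians of 37.3 and 36.8 CPM. Ndufc2 ran from a median of 276 CPM in cluster 8 to 8.57 CPM in cluster 3, and Ndufa9 from 94.6 to 3.38 CPM. Atp5g1, 1 of 3 genes for the same mature c-ring protein of ATP synthase, ran from 501 to 17.4 CPM. Its sister genes Atp5g2 (611 to 32.1 CPM) and Atp5g3 (299 to 17.2 CPM) had their lowest medians in cluster 3 as well, although Cox8a and Atp5l, also abundant in cluster 8, varied over all clusters by only 1.41 and 1.02 on the log2(CPM + 1) scale.

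Tissue-specific isoforms were sparse, with 1 exception. The table did not hold Cox7b2, Cox8b or Cox8c, and Cox4i2 (a hypoxia-responsive isoform), Cox7a1 (of heart and skeletal muscle) and Ndufa4l2 (hypoxia-induced) had medians of at most 2.55, 4.38 and 0.685 CPM in any cluster. Cox6b2, known from testis, reached a median of 20.2 CPM in the small cluster 12, from 53.4, 0, 29.4 and 11.03 CPM. The exception was Cox6a2 (chr7:128205435-128206387 in GRCm38), the heart and skeletal muscle isoform of subunit 6a. It had 82.9, 97.6, 60.7 and 104 CPM in cluster 8, 25.6, 57.1, 60.3 and 104 CPM in cluster 10, and 39.8, 36.0, 54.8 and 55.3 CPM in dendritic cell-like cluster 7, and its median was 2.31 CPM in cluster 1 and 0 in cluster 3. The ubiquitous Cox6a1 remained the more abundant isoform where both were counted, at 393, 363, 292 and 297 CPM in cluster 8 and 211, 263, 220 and 206 CPM in cluster 10. UMIs count transcript ends, so these levels need no correction for length. Cox6a2 was among the 10 genes that lead cluster 8, so its height there is a description of the cluster.

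**Figure D2:**
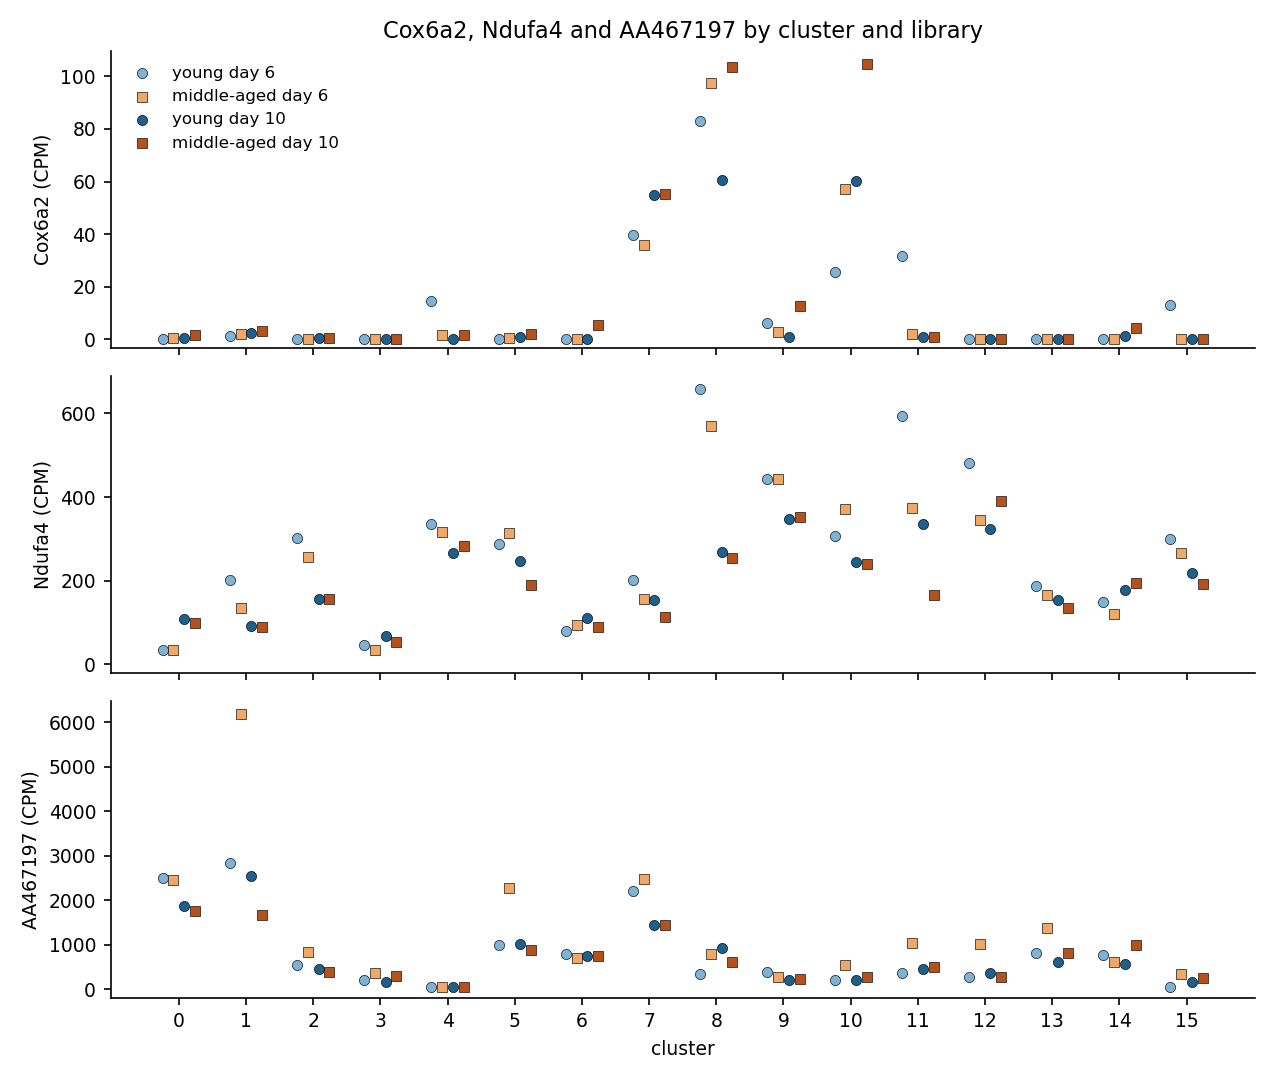
CPM of Cox6a2 (top), Ndufa4 (middle) and AA467197 (bottom) in each of the 16 clusters, with 1 point per library. Cox6a2 is seen mainly in clusters 7, 8 and 10, Ndufa4 in cluster 8 lies at 569 to 659 CPM on day 6 and 255 to 268 CPM on day 10, and AA467197 in cluster 1 is highest in the middle-aged day 6 library.

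In neutrophil-like cluster 0 the respiratory chain genes were higher on day 10 than on day 6 in both ages. Of 79 genes with 100 or more UMIs in the pair of libraries, 79 were higher on day 10 in the young pair, where 73.5% of all genes tested were higher, and 78 in the middle-aged pair, where 76.4% of all genes were. The median log2 CPM ratio of day 10 over day 6 was 1.53 in young and 1.62 in middle-aged mice, and that of all genes 0.577 and 0.677. Ribosomal protein genes had medians of similar size, 1.47 and 1.73, so the rise was not particular to the members. Every complex was part of the members' rise, with median log2 ratios in the young and middle-aged pair of 1.72 and 1.75 for complex I, 1.27 and 1.17 for complex II, 1.46 and 1.45 for complex III, 1.22 and 1.25 for complex IV and 1.45 and 1.62 for complex V. The 3 assembly factors with enough UMIs had medians of 1.86 and 1.99. The per-cell view was the same: after thinning each cell to 1000 UMIs, the median cell held 5, 5, 13 and 13 UMIs of the 91 genes, with 32, 78, 63 and 71 shallower cells left out of 1489, 3880, 1729 and 2159. Without thinning the median cell's share was 0.526%, 0.516%, 1.34% and 1.31%.

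**Figure D3:**
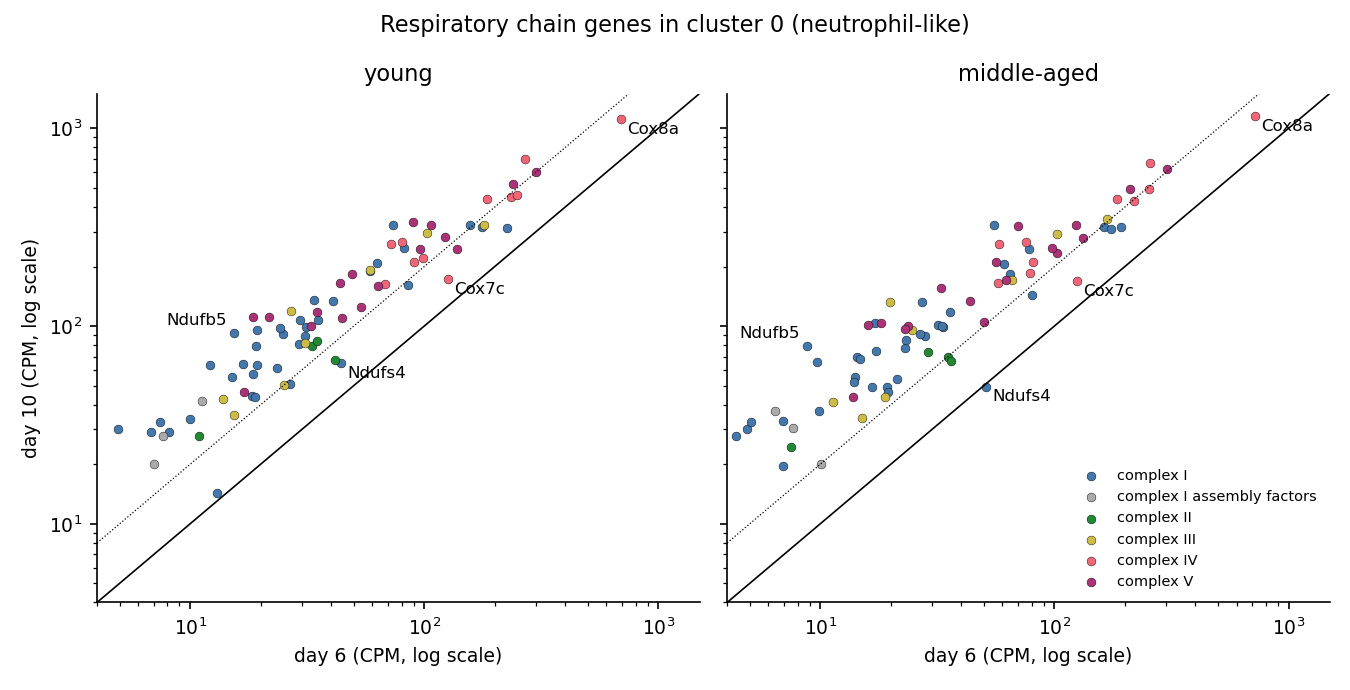
CPM of each respiratory chain gene in neutrophil-like cluster 0 on day 6 (horizontal, log scale) and day 10 (vertical, log scale), young on the left and middle-aged on the right, coloured by complex, with the line of equal levels. All 79 points tested in the young pair and 78 of 79 in the middle-aged pair lie above the line.

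The size differed between genes. Ndufv1, the flavin-bearing subunit of complex I that takes electrons from NADH, had 4.90, 5.06, 30.3 and 32.6 CPM. The accessory subunit Ndufb5 had 15.3, 8.75, 92.1 and 79.4 CPM, and Atp5g1 18.5, 15.9, 111 and 102 CPM. Uqcr11, the smallest subunit of complex III, had 27.0, 19.9, 119 and 132 CPM. At the other end stood abundant genes: Cox8a had 691, 720, 1110 and 1156 CPM, and Cox7c 126, 125, 173 and 169 CPM. Ndufs4, an accessory subunit of complex I, had 44.1, 51.2, 64.9 and 49.4 CPM, the 1 gene that was not higher in the middle-aged pair.

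An edgeR fit of day and age on the 4 libraries, scaled by TMM (trimmed mean of M values) and with Benjamini-Hochberg adjustment, sets the typical gene near 0 and gave smaller changes. Of 83 members tested, 65 were called (63 higher and 2 lower on day 10), against 54.4% of 9593 genes called in all and 27.2% called higher. The members' median log2 change was 0.846 and that of all genes 0.079. The genes called lower were Ndufs4, which fell by 0.52 on the log2 scale (adjusted p = 0.019), and Cox7c, which fell by 0.31 (adjusted p = 0.049). Both are higher on CPM in the young pair, so their direction turns with the scaling, as do those of Cox8a (-0.07) and Ndufb1-ps (-0.16), which did not pass the test. DESeq2 called 48 members, none of them lower, against 2929 of 9593 genes called in all and 988 called higher. This fit was added after the shares had been seen, and it rests on 1 residual degree of freedom.

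The rest of the pathway was mixed in the same fit of cluster 0. Of 13 mitochondrially encoded genes, 0 were called higher and 5 lower, with a median log2 change of -0.26. On CPM their sum was 5694, 4089, 6494 and 6373. Of 34 assembly factors outside the symbol rule, 21 were called higher and 4 lower, of 12 citric acid cycle enzymes 8 higher and 0 lower, of 9 regulators of mitochondrial genes 5 higher and 1 lower, of 9 electron carriers and entry points 3 higher and 1 lower, and of 7 heat shock genes 0 higher and 4 lower. Lists of other cell types differed between the days as well. The summed CPM of the monocyte/macrophage list (12 of 12 genes with a UMI) was 3826, 3029, 6387 and 6557, of the microglia list 84.5, 63.4, 244 and 241, of the T cell list 24.1, 26.8, 66.9 and 74.5, and of the neutrophil list 51987, 44887, 54516 and 49524, and ribosomal protein genes took 2.75%, 2.32%, 7.0% and 6.95% of UMIs. A filter then left out cells with 2 or more UMIs of T cell or B cell markers, or of the monocyte/macrophage list without Lyz2, Plac8 and Chil3. The members' median log2 CPM ratio was then 1.76 in young and 1.63 in middle-aged mice. Microglia markers were not part of this filter, and it does not remove RNA of other cells below its cut. The part of such RNA in the ratio was not tested.

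Neutrophil-like cluster 3, with 172 to 514 cells per library, had member shares of 0.599%, 0.492%, 0.831% and 0.805%. On CPM, 48 of 54 genes were higher on day 10 in young mice (53.7% of all genes) and 26 of 26 in middle-aged mice (57% of all genes), with median log2 ratios of 0.586 and 0.583. The edgeR fit called 5 of 69 members, all higher, against 17.8% of genes called and 4.53% called higher. They were the complex I subunits Ndufv3, Ndufa8, Ndufb11 and Ndufb7 and the ATP synthase subunit Atp5h, which rose by log2 1.97 (SE 0.40) for Ndufv3 to 1.07 (SE 0.26) for Atp5h, with adjusted p-values between 0.0060 and 0.017. Ndufv3 had 18.1, 9.5, 82.9 and 41.4 CPM, and Ndufb7 94.2, 63.3, 223 and 173 CPM. The calls changed with the fit: DESeq2 called 0 of 69 members, against 381 of 4523 genes. Without 1 library the edgeR calls changed too. The members' median log2 change then ran from 0.395 (young day 10 left out) to 0.610 (middle-aged day 10 left out). On CPM, members of neutrophil-like cluster 6 were mostly higher on day 10 too, 70 of 73 in young (51.3% of all genes) and 28 of 39 in middle-aged mice (62.3%). In cluster 1 it was 77 of 88 (55.3%) and 66 of 90 (64.6%). Other clusters were mixed, and cluster 11 went the other way, with 20 of 83 (32.7%) and 5 of 81 (39.9%).

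The age comparison was made in microglia-like cluster 10, cluster 8, T cell-like cluster 2 and monocyte/macrophage-like cluster 1. In cluster 10 the members were higher in middle-aged than in young mice on day 6, and not on day 10. On day 6, 80 of 85 genes were higher in the middle-aged library, where 45.1% of all genes were, with a median log2 CPM ratio of 0.369 against -0.043 over all genes. The summed UMIs gave 0.395 (95% interval 0.376 to 0.414, counting error only). On day 10, 28 of 84 were higher, where 49.3% of all genes were, with a median of -0.0456. The 4 shares were 1.40%, 1.84%, 1.66% and 1.61%, so the young day 6 library was the low one and the middle-aged day 6 library the high one.

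On day 6 the ratio in cluster 10 covered all 5 complexes: 36 of 38 complex I genes were higher (median 0.347), 4 of 4 of complex II (0.341), 8 of 8 of complex III (0.367), 12 of 12 of complex IV (0.523) and 17 of 17 of complex V (0.413). The assembly factors did not share it, with 3 of 6 higher and a median of -0.132. Among the genes with the same sign on both days, the largest day 6 ratios were those of Cox6a2 (1.16 on day 6 and 0.79 on day 10), Cox8a (0.76 and 0.09) and Uqcr10 (0.71 and 0.15). Cox8a had 460, 778, 676 and 719 CPM. The largest ratios below 0 were those of the assembly factor Ndufaf2 (-0.31 and -0.19) and the complex I subunits Ndufa10 (-0.13 and -0.12) and Ndufv2 (-0.08 and -0.20), whose 95% intervals held 0 on both days. Several other measures differed between the same libraries. The 7 heat shock genes, all with a UMI, summed to 14904, 5712, 3209 and 3493 CPM, the microglia list (11 of 11 genes) to 11222, 7011, 7749 and 7725 CPM, the neutrophil list (13 of 13) to 4792, 1610, 6126 and 3844 CPM and the dividing cell list (6 of 6) to 892, 1362, 690 and 644 CPM. Mitochondrially encoded genes were 0.482 higher in middle-aged mice on day 6 on the log2 scale. The cluster held 432, 216, 362 and 334 cells with medians of 6931, 10000, 8673.5 and 8394 UMIs. The part of these in the ratio of the respiratory chain genes was not tested. Thinned to 1000 UMIs, the median cell held 13, 18, 15 and 15 UMIs of the members, with 8, 1, 1 and 2 shallower cells left out, against unthinned shares of 1.30%, 1.77%, 1.55% and 1.51%.

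**Figure D4:**
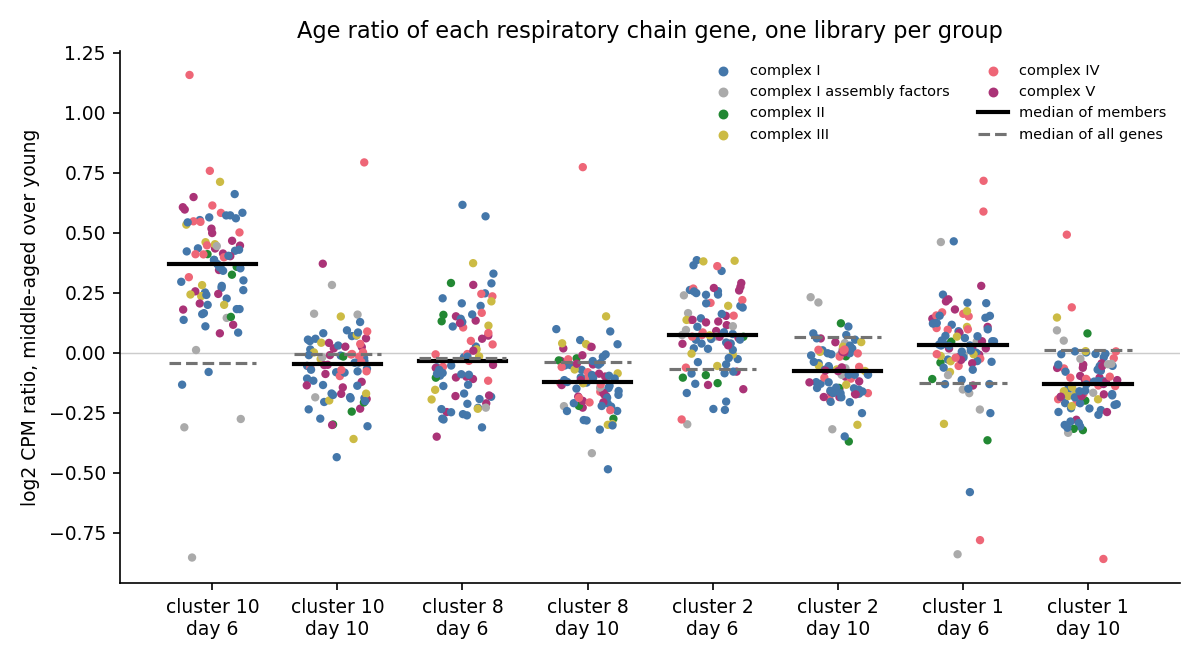
Log2 CPM ratio of middle-aged over young for each respiratory chain gene with 100 or more UMIs (1 point per gene, coloured by complex), by cluster and day, with the median of the members as a solid bar and the median of all genes as a dashed bar. In cluster 10 on day 6 the members' median is 0.369, and in the other 7 columns it lies between -0.132 and 0.0739.

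In clusters 8, 2 and 1 the median age ratios on CPM lay between -0.132 and 0.0739, and their size moved with the scaling. Among clusters outside this comparison, some lay beyond that range on day 6, in both directions. In cluster 13, 33 of 40 members were higher (50.4% of all genes, median 0.294), and in cluster 5, 71 of 84 (41.4%, median 0.124). In cluster 3, 4 of 22 were higher (35.1%, median -0.294), and in cluster 0, 21 of 76 (42.6%, median -0.1475). In cluster 8, 34 of 79 members were higher in middle-aged mice on day 6 (47.2% of all genes) and 11 of 81 on day 10 (44.4% of all genes), with medians of -0.0336 and -0.122. The day 6 value turned direction with TMM scaling (0.0460), as a mean of log-normalised values per cell (0.209) and without cells with markers of another lineage (0.0527). Its highest day 6 ratios with the same sign on both days were those of Uqcrh (0.37 and 0.15), Ndufa10 (0.33 and 0.05) and Cox6a2 (0.23 and 0.77), and its lowest those of Atp5g1 (-0.35 and -0.20), Ndufa8 (-0.31 and -0.12) and Ndufv2 (-0.28 and -0.21). In cluster 2, 61 of 85 were higher on day 6 (40.2% of all genes) and 24 of 86 on day 10 (62.8% of all genes), with medians of 0.0739 and -0.0749, and of 0.156 and -0.156 with TMM. Among the 38 members with the same sign on both days, Uqcrb (0.38 on day 6), Ndufa5 (0.26) and Atp5k (0.26) had the highest day 6 ratios, and Ndufaf7 (-0.30), Ndufa4 (-0.24) and Ndufa10 (-0.23) the lowest.

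In cluster 1, which holds the most UMIs of these 4, 53 of 89 members were higher on day 6 (33.2% of all genes) and 10 of 89 on day 10 (52.4% of all genes), with medians of 0.0307 and -0.132 against -0.126 and 0.011 over all genes. The day 6 median was 0.154 with TMM. The 3 highest day 6 ratios with the same sign on both days were no more than 0.11 (Uqcr11), 0.10 (Cox8a) and 0.03 (Ndufa2). The lowest were those of Ndufaf7 (-0.84 on day 6 and -0.03 on day 10), Cox6b2 (-0.78 and -0.86) and Ndufa4 (-0.58 and -0.005).

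With age tested over both days by edgeR's quasi-likelihood test, no member was called in any of the 4 clusters: 0 of 88 in cluster 10, 0 of 87 in cluster 8, 0 of 87 in cluster 2 and 0 of 91 in cluster 1, with 0.142%, 0.0956%, 0.0616% and 0.0982% of all genes called. An unadjusted p under 0.05 in this test was reached by 3, 1, 0 and 3 members. Over all genes it was reached by 356 of 10562, 284 of 8371, 279 of 11362 and 405 of 12222. DESeq2 also called 0 members in each, with 5, 2, 6 and 12 genes called in all. Cox6a2 came nearest in cluster 10, from 88, 136, 212 and 338 UMIs, with a log2 change of 0.98 (SE 0.19) and an adjusted p of 0.13. Without the filter on low counts it was called (log2 0.97, adjusted p = 0.0014). In cluster 8 its change was 0.55, with an adjusted p of 1.0. On CPM, Cox6a2 was higher in the middle-aged library on both days in clusters 8 and 10, although on day 6 in cluster 8 its interval held 0 (-0.24 to 0.72). In cluster 7 it was not, with log2 ratios of -0.14 on day 6 and 0.01 on day 10 and intervals that held 0.

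Day was tested in the same fits. In cluster 10, 2 of 88 members were called, against 6.64% of all genes. Cox6a2 rose by log2 1.19 (SE 0.19, adjusted p = 0.0037), and Cox7a2l, whose product helps join complexes III and IV, rose by 1.20 (SE 0.24, adjusted p = 0.011) from 140, 214, 353 and 362 CPM. No member was called without the middle-aged day 10 library, 1 without the young day 10 library and 25 without the middle-aged day 6 library. In cluster 8, 10 of 87 were called, against 13.4% of all genes. Cox7a2l again rose most, by 1.20 (SE 0.18), from 260, 291, 527 and 518 CPM, followed by Uqcrh (0.93) and the complex I subunits Ndufa1 (0.90) and Ndufa6 (0.72), with Cox4i1 (0.65), Atp5l (0.62), Atp5h (0.56), Cox6c (0.50) and Cox8a (0.50) smaller. Ndufa4 was the member that fell, by 0.95 (SE 0.17, adjusted p = 0.00067). The calls in cluster 8 changed without 1 library. The members' median log2 change then ran from 0.158 (young day 10 left out) to 0.321 (middle-aged day 10 left out), against 0.178 with all 4.

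In T cell-like cluster 2, Ndufa4 was the 1 member of 87 called for day (7.22% of all genes were), and it fell by 0.73 (SE 0.19, adjusted p = 0.020 with edgeR). The calls changed without 1 library. The members' median log2 change then ran from -0.098 (young day 6 left out) to 0.078 (middle-aged day 6 left out). In cluster 1, 11 of 91 members were called, against 29.9% of all genes. Those that rose were Ndufaf4 (0.89), Ndufa5 (0.89), Atp5g2 (0.71), Cox7a2l (0.70), Ndufc2 (0.59), Ndufaf2 (0.59), Ndufb5 (0.57) and Ndufa4l2, which had only 0, 7, 38 and 27 UMIs. Ndufa5 had 56.7, 61.4, 136 and 110 CPM. Ndufa4 fell by 1.03 (SE 0.20), Cox4i2 by 1.01 (from 46, 89, 21 and 55 UMIs) and Ndufs4 by 0.61. The calls in cluster 1 changed without 1 library as well. The members' median log2 change then ran from 0.056 (young day 6 left out) to 0.188 (middle-aged day 10 left out).

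Ndufa4 was called lower on day 10 in 3 of the clusters fitted, 8, 2 and 1. Its product, named as a subunit of complex I, is now assigned to cytochrome c oxidase. It had 659, 569, 268 and 255 CPM in cluster 8, 302, 256, 156 and 155 in cluster 2, 202, 135, 90.7 and 90.4 in cluster 1 and 593, 374, 336 and 165 in cluster 11. In each of these 4 clusters both day 10 libraries lay below both day 6 libraries. Over the clusters with enough UMIs, its CPM was lower on day 10 in 11 of 15 in young and 11 of 13 in middle-aged mice. It was higher in 4 and 2 of them, by up to 1.62 and 1.59 on the log2 scale, with 1 interval above 0 in each age. Neutrophil-like cluster 0 was among those where it was higher. Cox7a2l was higher on day 10 in 15 of 16 clusters in young and 12 of 14 in middle-aged mice. Clusters of a library share its depth and handling, so these counts describe the 4 libraries.

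AA467197 (synonym Nmes1), outside the symbol rule and singled out after its values were seen, encodes a protein that can take the place of NDUFA4 in cytochrome c oxidase of activated myeloid cells. It was most abundant in cluster 1, with 2835, 6177, 2537 and 1666 CPM, and had 987, 2270, 1010 and 883 CPM in cluster 5, 359, 1033, 451 and 497 in cluster 11 and 212, 554, 208 and 280 in cluster 10. In each of these 4 clusters the middle-aged day 6 library was the highest. In B cell-like cluster 4 its values were 47.0, 48.2, 51.3 and 47.5 CPM. On day 6 it was higher in the middle-aged library in 9 of 13 clusters with enough UMIs, with 9 intervals above and 1 below 0, and on day 10 in 8 of 15, with 5 intervals above and 6 below 0. In cluster 1 both AA467197 and Ndufa4 were lower in each day 10 library than in either day 6 library.

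The bulk libraries give the state before disease. Naive microglia had 79373420 counts in the young and 76293436 in the middle-aged library, and the 91 genes took 0.275% and 0.253% of them, a lower share than in the single-cell libraries, from another protocol. Of 89 members with 100 or more counts, 21 were higher and 68 lower in the middle-aged library, where 48.3% of all 14821 genes were higher. The median log2 CPM ratio was -0.0846, against -0.0072 over all genes, whose quartiles were -0.155 and 0.140. The interval for counting error lay above 0 for 3 members and below 0 for 42, and the summed ratio was -0.120 (95% interval -0.129 to -0.112). The share of all genes with such intervals was not computed, so these 2 counts have no background. At this depth small ratios clear counting error, as with Cox4i1 at -0.148 (interval -0.203 to -0.093). With 1 library per age, there is no test of age here.

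Every complex leaned the same way, and none far. The medians were -0.105 for complex I (8 of 39 higher), -0.127 for complex II (0 of 4), -0.106 for complex III (1 of 8), -0.040 for complex IV (3 of 13) and -0.124 for complex V (5 of 17), and -0.011 for the assembly factors (4 of 8). The lowest ratio was that of Ndufa4l2, with 150 and 19 counts (-2.92). Ndufaf2 followed with 155 and 108 counts (-0.46), then Ndufv1 with 3777 and 2811 (-0.37), Ndufa12 with 919 and 684 (-0.37) and Ndufa13 with 1412 and 1086 (-0.32). The highest ratios were those of Cox6a2, with 89 and 113 counts (0.40, interval -0.01 to 0.82), and the assembly factors Ndufaf6 with 277 and 350 (0.39), Ndufaf5 (0.24) and Ndufaf8 (0.20), with Atp5j2 at 1125 and 1233 (0.19).

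**Figure D5:**
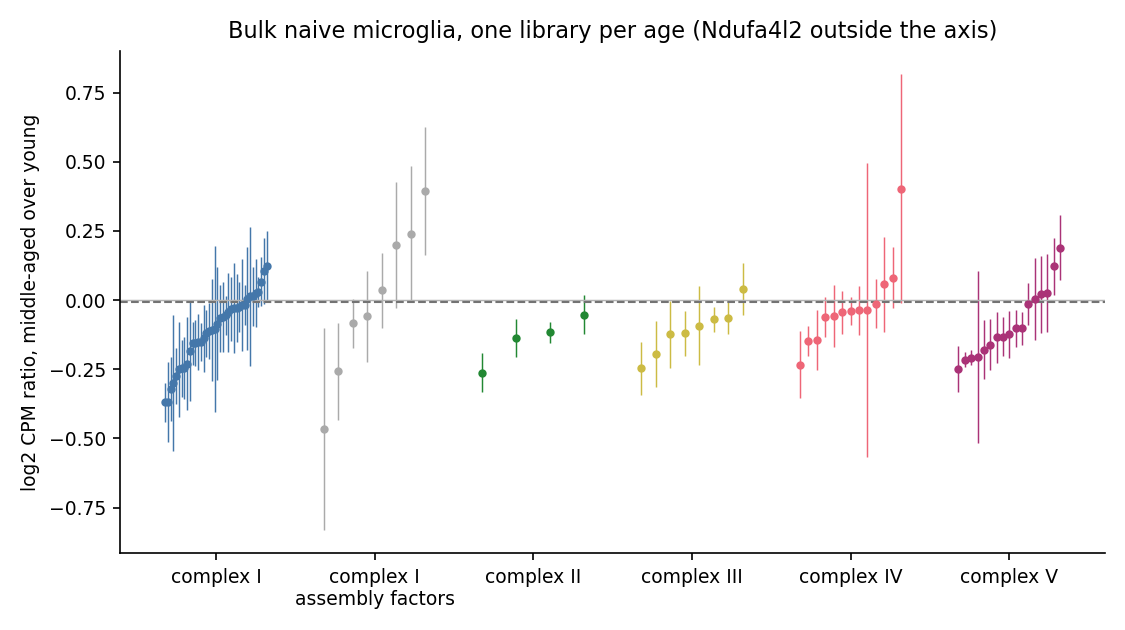
Log2 CPM ratio of middle-aged over young in bulk naive microglia for each respiratory chain gene with 100 or more counts, by complex, 1 library per age; Ndufa4l2 (-2.92) lies outside the axis. Of 89 genes, 68 lie below 0 and 21 above.

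Some of these levels moved together with markers of other cells. Ndufa4l2 and Cox4i2 (68 and 10 counts), known from pericytes, were lower alongside the endothelial list (0 of 9 higher, summed CPM 698 and 167) and the choroid plexus list (0 of 4 higher, 1018 and 167), and their part in the members' ratios was not tested. Fewer cells of a type and less RNA per cell cannot be told apart in bulk. All 11 microglia markers were abundant in both libraries, with summed CPM of 32951 and 31007, and Tmem119 at 3356 and 3430 CPM. Of the rest of the pathway, 2 of 13 citric acid cycle enzymes, 3 of 11 regulators and 4 of 10 mitochondrially encoded genes were higher in the middle-aged library, and 7 of 7 heat shock genes were, with a median of 0.518. The regulator Ppargc1a, a coactivator that drives respiratory genes, had 70 and 20 counts. The isoforms absent from the single-cell table were at or near 0 here too, with 10 and 18 counts for Cox8b and 0 and 0 for Cox7b2 and Cox8c.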

How the data were processed

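Single-cell libraries were sorted CD45+ spinal cord cells, sequenced by 10x chemistry. Per the labels and the submitters' processing notes, bcl2fastq and Cell Ranger 3.1.0 with mm10 were used for the single-cell libraries. Bulk reads were aligned with HISAT2 and counted with featureCounts, without strand, per the study's methods. The single-cell table holds raw UMI counts that the authors deposited after their cell filters, with their clusters, and the bulk table raw read counts per gene. UMIs were summed per cluster and library. Ratios of CPM had exact conditional binomial 95% intervals, which cover counting error only, where a gene reached 100 counts over the pair of libraries. Models used edgeR 4.0.16 (R 4.3.3; day and age, TMM, 10 or more UMIs in 2 or more libraries, Benjamini-Hochberg adjusted p under 0.05), tested on simulated data; fits without 1 library kept only the tested term. DESeq2 1.42.0 was an alternative. Doublets were not called. The members and lists were chosen with earlier results of these data known. Members were named by a fixed rule: the most abundant of each complex, isoform pairs, the widest ranges over clusters, the largest age ratios and edgeR calls. Of the calls in cluster 0 only those lower on day 10 are all named; the others named there were chosen after their values were seen. Of the 91 members, 1 was matched in bulk through a synonym.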

Additional observations from a re-analysis of the deposited data

Results flagged for a closer look

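The median log2 CPM ratio of middle-aged over young mice had opposite signs on the 2 days in 3 clusters. It was 0.369 on day 6 and -0.0456 on day 10 in microglia-like cluster 10, 0.0739 and -0.0749 in T cell-like cluster 2, and 0.0307 and -0.132 in monocyte/macrophage-like cluster 1. With 1 library per age and day, the difference between the days was not tested.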

How the results depend on the processing

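Of 140 alternatives that kept every library, 110 stayed within the spread of the value reported and 30 did not, and the cause was not tested. For medians this spread was a 95% interval from the ranks of the member genes, which are not replicates of an age or day. For shares it was the SD over libraries, and for calls a factor of 1.5. The sign of a median turned in 4 of the 140, 1 in cluster 10 on day 10 and 3 in cluster 8 on day 6. The interval over genes of that cluster 8 median held 0. With a total free of mitochondrially encoded and ribosomal genes, the member shares were 3.61% (cluster 8), 3.52% (cluster 11), 2.54% (cluster 1), 3.24% (cluster 2) and 1.97% (cluster 10), and as a mean over cells 2.81% (cluster 8) and 1.94% (cluster 2). On that reduced total, clusters 1 and 2 no longer lay close together. From log-normalised values per cell, the median age ratios were 0.573 in cluster 10 on day 6, 0.0103 on day 10 (reversed), 0.209 and -0.236 in cluster 8 and -0.159 in cluster 2 on day 10. With TMM they were 0.0460 (cluster 8, day 6), 0.156 and -0.156 (cluster 2) and 0.154 (cluster 1, day 6). Without cells with markers of another lineage they were 0.0527 (cluster 8) and 0.123 (cluster 1) on day 6, and without mitochondrially encoded and ribosomal genes -0.112 (cluster 2, day 10). The day ratios of cluster 0 were 0.868 (young) and 0.860 (middle-aged) with TMM, and 1.76 (young) without cells with markers of another lineage. For age, 1 member was called in cluster 10 without the filter on low counts, where 53 of 15738 genes were. For day, DESeq2 called 1 member in cluster 10 (138 of 10562 genes), 3 in cluster 8 (248 of 8371), 6 in cluster 1 (1923 of 12222) and 0 in cluster 3 (381 of 4523). Without the other term, 1 was called in cluster 10 (487 of 10562 genes) and 0 in cluster 3 (291 of 4523). With no filter, 6 were called in cluster 1 (2791 of 17316 genes). Leaving out a library gave 0 to 25 (cluster 10), 5 to 23 (cluster 8), 0 to 8 (cluster 2), 0 to 23 (cluster 1), 53 to 66 (cluster 0) and 0 to 12 (cluster 3) for day, and 0 for age in each cluster fitted. The bulk median stayed between -0.0901 and -0.0830. No paired analysis was possible because each group is 1 library and the labels give no replicate numbers to pair. Precision is set by 1 library per group: intervals of ratios cover counting error, those of medians the spread over genes, and edgeR fits rest on 1 residual degree of freedom.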
